A study of Danio rerio with 14 samples.

Results

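The livers compared here came from overfed adult zebrafish that were either heterozygous (ahcy+/-) or wild type (ahcy+/+) for ahcy, the gene of S-adenosylhomocysteine hydrolase. Of the 14 liver arrays in the study, 7 were chosen by their titles: 2 from overfed ahcy+/- fish (arrays 1 and 4) and 5 from overfed ahcy+/+ fish (arrays 2, 3, 4, 6 and 7). Both genotypes were kept at the same temperature, and the overfed fish of both genotypes shared 1 tank that received food ad libitum for a month. The remaining 4 ahcy+/+ and 3 ahcy+/- arrays came from a second tank on the usual ration, here called the regular diet, and are used only as a reference. Each Affymetrix array measured the total RNA of a liver in 1 colour. The labels give neither the sex of the fish nor the nature of the ahcy allele, and 1 tank per diet means that p-values measure the spread among fish within a tank. All values are log2 levels, on which a difference of 1 is a 2-fold change. Hepatocyte markers matched the labelled tissue: the liver fatty acid binding protein gene fabp10a read 14.16 and 14.17 on the heterozygous arrays and 14.05 to 14.28 on the wild-type arrays.

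S-adenosylhomocysteine is what remains of S-adenosylmethionine once it has donated its methyl group. It inhibits most methyltransferases, and the enzyme encoded by ahcy removes it by splitting it into adenosine and homocysteine. Homocysteine is then remethylated to methionine or passed on to cysteine synthesis. The liver is the main site of this cycle, where it also serves the synthesis of creatine and phosphatidylcholine, and disturbance of the cycle is associated with fatty liver in animals. The comparison asked how a liver heterozygous for ahcy differs from a wild-type liver when both have been overfed.

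The mean level of the ahcy transcript was no lower in the heterozygous livers. Its probe set read 13.33 and 13.24 in ahcy+/- livers and 13.18, 13.26, 13.26, 13.15 and 13.19 in ahcy+/+ livers. Array 1 of the heterozygotes was the highest of the 7, array 4 lay inside the wild-type range, and the groups overlapped. The mean difference was 0.08 ± 0.10 (SE), with a 95% interval from -0.13 to 0.29 that excludes a 2-fold difference either way, and a 2-sided exact permutation test gave p = 0.238, where the smallest p that 2 against 5 arrays allow is 0.0476. On the regular diet the heterozygotes differed from wild type by 0.10 in the same direction. The position of the probe set relative to the mutation is not given in the sources used here, so its level does not check the genotype.

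Across the array no transcript passed the test for genotype after overfeeding. Of 15134 probe sets, 0 (0.0%) had an adjusted p under 0.05 in limma, and the smallest adjusted p was 0.631, for the hepatocyte transcription factor gene hnf4a. At an unadjusted p under 0.05 there were 260 (1.72%), 139 higher and 121 lower in heterozygotes. Both heterozygous arrays lay above all 5 wild-type arrays for 475 probe sets (3.14%) and below all 5 for 526 (3.48%). The median size of a difference was 0.11, against a median standard error of 0.19. For 13495 probe sets (89.2%) the 95% interval excluded a 2-fold difference either way, and for 60.2% it excluded a 1.5-fold difference. Mean levels differed at least 2-fold for 99 probe sets, 46 higher and 53 lower, but for 51 of those the 2 heterozygous arrays themselves stood at least 2-fold apart. Only 16 of the 99, 7 higher and 9 lower, had both heterozygous arrays on the same side of all wild-type arrays.

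The 12 genes with the smallest unadjusted p in each direction are described next as values, since none passed after adjustment. Differences ran from 0.57 to 1.4 among the 12 higher and from 0.36 to 1.25 in size among the 12 lower genes. Both heterozygous arrays lay above every wild-type array for 8 of the higher genes and below every wild-type array for all 12 lower genes. Heterozygous array 1 was the more extreme of the pair for most of them. It was the higher for all higher genes except igl1c1, and the lower for all lower genes except trim47, bcl6ab and dtx4a. These genes were selected for small p-values, so that the counts describe the selection.

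**Figure D1:**
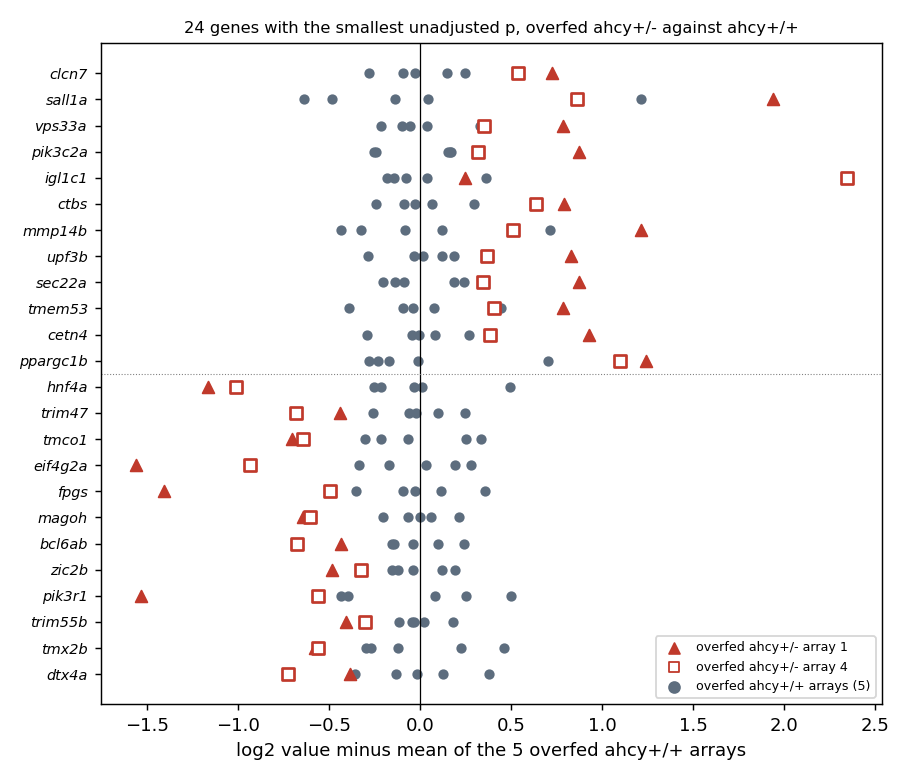
Level on each of the 7 overfed arrays minus the mean of the 5 ahcy+/+ arrays (log2, horizontal axis) for the 12 higher and 12 lower genes with the smallest unadjusted p; each point is 1 array. For the lower genes both heterozygous arrays sit left of every wild-type array, whereas igl1c1 is high on heterozygous array 4 alone.

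The transcription factor gene hnf4a, a nuclear receptor that maintains hepatocyte identity and lipid metabolism, had the smallest p of all probe sets. The hepatocyte list that holds it did not share its direction: of 26 genes, 15 were higher and 11 lower (median 0.01). Both heterozygous arrays were above all wild-type arrays for 1 of the 26 (3.85%, against 3.14% of all probe sets). They were below for 1, hnf4a itself (3.85%, against 3.48%). The hnf4a probe set ending in S1_at read 6.60 and 6.75 in ahcy+/- livers and 7.55, 7.51, 7.77, 7.73 and 8.25 in ahcy+/+ livers. The groups were well separated, and the mean was 2.12-fold lower in heterozygotes, a log2 difference of -1.09 ± 0.18 (SE; 95% interval -1.48 to -0.70; limma, adjusted p = 0.631). A second hnf4a probe set, ending in S2_at, gave a different picture. It read 7.49 and 6.63 in ahcy+/- livers and 7.64, 6.57, 6.39, 6.26 and 6.35 in ahcy+/+ livers, so that the groups overlapped and the mean difference was 0.42 ± 0.41 (SE). The mean differences of the 2 probe sets thus had opposite signs. On the regular diet the first probe set averaged 6.93 in ahcy+/- and 7.10 in ahcy+/+ livers. The overfed wild-type arrays stood above all arrays of the other groups, and the overfed heterozygous mean of 6.67 was below both regular-diet means.

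**Figure D2:**
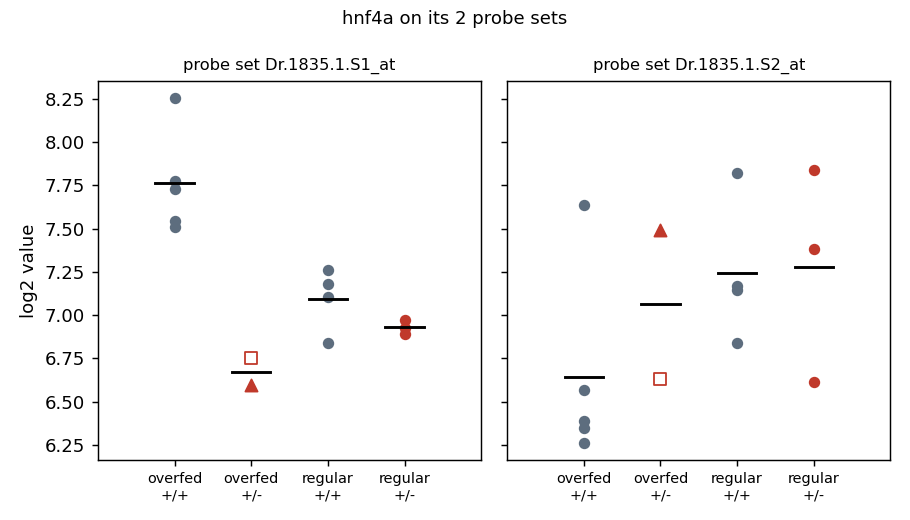
Level of hnf4a (log2) on its 2 probe sets in the 4 groups; points are arrays (triangle and open square are overfed ahcy+/- arrays 1 and 4), and bars are group means. On the left probe set the overfed ahcy+/+ arrays (7.51 to 8.25) stand above every other array, and on the right probe set the groups overlap.

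The overfed wild-type mean was likewise the highest of the 4 group means for tmco1, magoh and bcl6ab. On the probe sets with the smallest p this also held for eif4g2a, fpgs, pik3r1 and, only just, zic2b. For the other lower genes, trim47, trim55b, dtx4a and tmx2b, a regular-diet mean was higher. The gene trim47 averaged 5.22 in overfed ahcy+/- and 5.79 in overfed ahcy+/+ livers, with regular-diet means of 6.15 and 6.21. For dtx4a these 4 means were 5.50, 6.05, 6.25 and 6.57. The gene tmco1, for a calcium channel of the endoplasmic reticulum, read 6.96 and 7.02 in overfed ahcy+/- livers and 7.45, 7.36, 7.6, 7.91 and 8.0 in overfed ahcy+/+ livers, while the regular-diet means were 7.05 in ahcy+/- and 7.09 in ahcy+/+ livers. The groups did not overlap, and the difference was -0.67 ± 0.16 (SE). For magoh, a core subunit of the exon junction complex, the overfed heterozygotes read 8.01 and 8.05 against 8.452 to 8.864 in wild type, with regular-diet means of 7.94 and 8.07. The transcriptional repressor gene bcl6ab read 6.25 and 6.01 against 6.52 to 6.92, with regular-diet means of 5.92 and 5.91. For tmco1, magoh and bcl6ab the overfed ahcy+/- level lay nearer to the regular-diet means than to the overfed ahcy+/+ mean. Because the genotype difference and any diet difference in wild type share the 5 overfed ahcy+/+ arrays, the 2 are not independent, and only the levels are given.

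Single genes of folate retention, translation and insulin signalling were also among the lower ones. The gene fpgs, whose enzyme adds glutamates to folates and so keeps them in the cell, read 6.19 and 7.09 in ahcy+/- and 7.24 to 7.95 in ahcy+/+ livers. Array 1 was the lower of the heterozygotes by 0.91, and the difference was -0.95 ± 0.27 (SE). Its 4 other probe sets were lower by 0.64 to 0.94, but their groups overlapped, with array 1 below wild type on 3 of them and array 4 on none. The initiation factor gene eif4g2a read 5.26 and 5.88 against 6.48 to 7.10 (difference -1.25 ± 0.34, SE), and its other probe set differed by -0.32 with overlapping groups. The gene pik3r1 encodes the regulatory subunit of the kinase that relays the insulin signal. It read 8.49 and 9.46 against 9.58 to 10.52 (difference -1.05 ± 0.32, SE), and its other probe set differed by -0.49 with overlapping groups. As with fpgs, array 1 of the heterozygotes was the lower of the pair for both genes.

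The remaining lower genes differed by -0.57 to -0.36. The ubiquitin ligase genes trim47 (-0.56 ± 0.14, SE), trim55b (-0.36 ± 0.11, SE) and dtx4a (-0.56 ± 0.19, SE), the latter of the Deltex family linked to Notch signalling, lay below all wild-type arrays. So did zic2b, a zinc finger gene of neural development (-0.40 ± 0.12, SE), although its levels of 3.51 and 3.67 were near the floor of 4 used as a filter. The thioredoxin-related gene tmx2b differed by -0.57 on 1 probe set and by 0.04 to 0.09 on its 3 others. On the probe set that differed by -0.57, the heterozygous levels of 3.83 and 3.85 were likewise below the floor.

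Among the higher genes, 3 encode proteins of the lysosome or of traffic to it; they were placed together after their values were seen and are not in the lysosome list. The gene clcn7, for a chloride transporter of lysosomes, had the smallest p of the higher genes. It read 7.25 and 7.07 in ahcy+/- livers and 6.50, 6.77, 6.44, 6.68 and 6.25 in ahcy+/+ livers, without overlap and 1.55-fold higher (0.63 ± 0.16, SE). The lysosomal glycosidase gene ctbs read 5.27 and 5.12 against 4.24 to 4.78, also without overlap (0.71 ± 0.22, SE). For vps33a, a subunit of complexes that tether vesicles to lysosomes, array 1 read 5.55 and array 4 read 5.12, the latter only just above the highest wild-type array at 5.1. The kinase gene pik3c2a, which acts in endocytosis, read 8.07 and 7.51 against 6.95 to 7.37, and its second probe set differed by 0.05. The vesicle gene sec22a read 7.48 and 6.95 against 6.4 to 6.85. In all of these genes array 1 was the higher of the heterozygotes.

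Single genes linked to mitochondria, to RNA surveillance and to centrioles were among the higher ones too. The coactivator gene ppargc1b, which drives mitochondrial gene expression, read 6.52 and 6.38 in ahcy+/- livers and 5.11, 5.05, 5.98, 5.0 and 5.27 in ahcy+/+ livers. It was 2.25-fold higher without overlap (1.17 ± 0.39, SE), but its second probe set differed by 0.02 ± 0.13 (SE). On the regular diet the first probe set averaged 6.37 in ahcy+/- and 6.13 in ahcy+/+ livers, so that the overfed wild-type arrays were the low group. The nonsense-mediated decay gene upf3b read 7.70 and 7.24 against 6.59 to 7.06, and its 3 other probe sets were higher by 0.28 to 0.34 with overlapping groups. The centrin gene cetn4, for a calcium-binding protein of centrioles, read 6.96 and 6.42 against 5.75 to 6.31.

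For 4 of the higher genes a wild-type array reached into the heterozygous range. The zinc finger gene sall1a had the largest difference of the 12 (1.4 ± 0.41, SE) and read 7.76 and 6.68 in ahcy+/- livers, but wild-type array 3 read 7.04. The same array overlapped for mmp14b, a membrane-bound metalloproteinase (7.61 and 6.91 against 5.97 to 7.12), and for tmem53 (5.58 and 5.2 against 4.41 to 5.24). The second tmem53 probe set differed by 0.08 ± 0.15 (SE), with overlapping groups. The immunoglobulin light chain gene igl1c1 was high on array 4 alone, at 7.73, while array 1 at 5.63 lay within the wild-type range of 5.21 to 5.75.

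Methionine cycle and one-carbon genes showed no shared direction. Of 26 measured genes, 0 passed (0.0% of all probe sets), 12 were higher and 14 lower, and their median difference was -0.01, equal to the median of -0.01 over all genes with 1 probe set each. All differences lay between -0.37 and 0.29. Without heterozygous array 1 the median was 0.05, with 16 higher and 10 lower. Both heterozygous arrays were above wild type for 3 genes (11.5%, against 3.14% of all probe sets) and below for 1 (3.85%, against 3.48%). The 95% interval excluded a 2-fold difference either way for 24 of the 26, the exceptions being odc1 and mat2aa.

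Genes for the enzymes that make S-adenosylmethionine had mean differences between -0.05 and 0.15, although for 1 of them the heterozygous arrays lay apart. The liver enzyme gene mat1a read 12.38 and 12.60 in ahcy+/- livers and 12.03 to 12.62 in ahcy+/+ livers (0.15 ± 0.17, SE). The more widely expressed mat2aa split the heterozygotes. It read 9.52 on array 1 and 7.86 on array 4, the first above and the second below the wild-type range of 8.31 to 8.76. Its mean difference of 0.12 had a standard error of 0.78, which pools the spread within all 4 groups. That spread was largest among the regular-diet ahcy+/+ arrays. The regulatory subunit gene mat2b differed by -0.05 ± 0.21 (SE).

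Mean differences lay between -0.31 and 0.18 for gnmt, gamt and pemt, whose enzymes consume S-adenosylmethionine, and for the remethylating enzyme genes bhmt and mtr. The glycine methyltransferase gene gnmt, a main methyl acceptor pathway of liver, differed by 0.18 ± 0.26 (SE), and gamt, which makes creatine, by -0.04 ± 0.23 (SE). The phosphatidylcholine gene pemt read 6.58 and 6.45 in ahcy+/- livers against 6.48 to 7.27 in ahcy+/+ livers, a difference of -0.31 ± 0.19 (SE). Of the enzymes that return homocysteine to methionine, bhmt read 13.63 and 13.69 against 13.37 to 13.73 (0.09 ± 0.26, SE) and the methionine synthase gene mtr differed by -0.13 ± 0.35 (SE). In the branch to cysteine, cbsb differed by -0.03 ± 0.23, cth by -0.24 ± 0.27 and the cysteine dioxygenase gene cdo1 by 0.01 ± 0.17 (SE). The level of cth on array 1 (9.44) was below, and that on array 4 (10.37) within, the wild-type range of 9.71 to 10.62.

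The 4 genes of the list with both heterozygous arrays on the same side of all wild-type arrays included a relative of ahcy and a user of its product. The gene ahcyl2b, of a family related to ahcy in sequence, read 7.39 and 7.59 against 7.08 to 7.26 (0.29 ± 0.18, SE). Its second probe set was higher by 0.40 with overlapping groups. The adenosine kinase gene adka, whose enzyme removes the adenosine that the ahcy reaction releases, read 11.34 and 11.42 against 11.23, 11.23, 11.17, 11.26 and 10.73 (0.25 ± 0.16, SE). Both heterozygous arrays were just above wild type, and 1 wild-type array was far below the rest. The paralogue adkb differed in the other direction, by -0.22 ± 0.15 (SE). The spermine synthase gene sms was higher by 0.10 and the mitochondrial folate gene mthfd2 lower by 0.17.

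**Figure D3:**
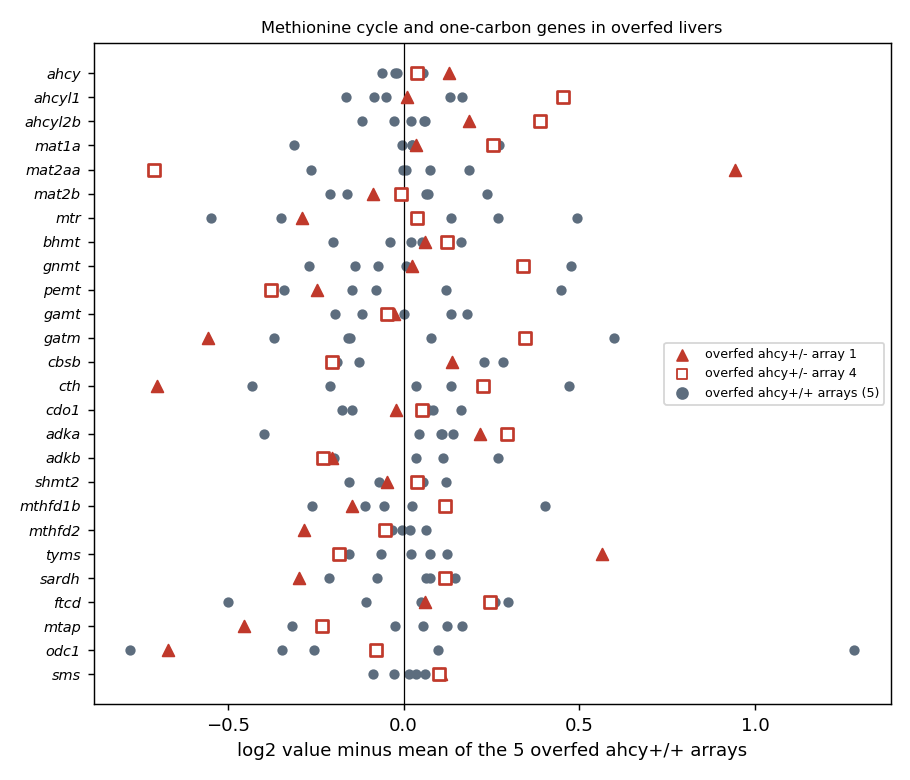
Level on each overfed array minus the mean of the 5 ahcy+/+ arrays (log2, horizontal axis) for ahcy and 25 other methionine cycle and one-carbon genes. Most heterozygous points lie inside the wild-type spread, and mat2aa has array 1 to the right and array 4 to the left of it.

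Methyltransferases that use S-adenosylmethionine, the enzymes that its by-product inhibits, were lower in 21 and higher in 10 of 31 genes, with a median of -0.09 and none passing. Without heterozygous array 1 the median was -0.02. Both arrays lay below wild type for 2 (6.45%, against 3.48%) and above it for 0. The protein repair methyltransferase gene pcmt read 7.82 and 7.66 against 7.88 to 8.03 (-0.21 ± 0.15, SE), and its 3 other probe sets were lower by 0.14 to 0.16. The arginine methyltransferase genes prmt5 (-0.40 ± 0.31, SE) and prmt2 (0.21 ± 0.13, SE) and the RNA adenosine methyltransferase gene mettl3 (-0.16 ± 0.13, SE) overlapped wild type.

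Fatty acid oxidation genes were higher in 22 of 24 cases, with a median of 0.16 (0.24 without heterozygous array 4, when 17 were higher) and none passing. For 0 of the 24 were both heterozygous arrays above all wild-type arrays, against 3.14% of all probe sets. The mean level of the list was 9.55 and 9.45 in ahcy+/- livers and 9.35, 9.70, 9.21, 9.45 and 8.78 in ahcy+/+ livers, so that both heterozygotes lay inside the wild-type range. The carnitine palmitoyltransferase gene cpt1ab, at the entry of fatty acids into mitochondria, read 7.76 and 6.96 against 5.65 to 7.18 (1.0 ± 0.40, SE). The dehydrogenase genes hadh and acadm differed by 0.30 ± 0.20 and 0.28 ± 0.20 (SE).

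Lipid synthesis genes went both ways. Of 17 fatty acid and triglyceride synthesis genes, 11 were higher and 6 lower (median 0.07). The acyl-CoA synthetase gene acsl1a read 5.86 and 5.80 against 5.40 to 5.69 (0.30 ± 0.11, SE), and its 5 probe sets were higher by 0.07 to 0.38. The gene mid1ip1l, a regulator of acetyl-CoA carboxylase, read 8.06 and 7.99 against 8.12 to 8.86 (-0.58 ± 0.25, SE). Of 13 cholesterol synthesis genes, 6 were higher and 7 lower, and the wild-type arrays differed among themselves far more than the genotypes: the list averaged 8.33 and 8.69 in ahcy+/- livers and 7.47, 7.30, 8.59, 9.76 and 9.62 in ahcy+/+ livers. Of 18 lipoprotein genes, 11 were higher and 7 lower (median 0.03). Both heterozygous arrays were above wild type for 1 (5.56%, against 3.14% of all probe sets) and below for 1 (5.56%, against 3.48%). The first, apoa4b.1, read 13.06 and 13.11 against 11.97 to 13.05 (0.46 ± 0.23, SE). The second, scarb1, read 5.955 and 5.858 against 5.998 to 6.31 (-0.24 ± 0.14, SE), and its other probe set differed by -0.10 with overlapping groups.

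Other groups differed by little, and none of the 38 lists held a gene that passed. Cytosolic ribosomal protein genes were lower in 61 of 74 cases by a median of 0.04, and 11 of them (14.9%, against 3.48% of all probe sets) were below every wild-type array on both heterozygous arrays. The level of rpl13 was 12.97 and 13.04 against 13.07 to 13.24, and that of rps23 was 13.18 and 13.18 against 13.24 to 13.29. As a list they averaged 13.05 on both heterozygous arrays and 13.04 to 13.14 on the wild-type arrays. Acute phase and complement genes were higher in 33 of 44 cases (median 0.07), 5 of them (11.4%, against 3.14%) above every wild-type array, among them the coagulation factor gene f5 (0.36 ± 0.18, SE) and the cytokine signalling gene stat3 (0.23 ± 0.16, SE). After quantile normalization 24 of the 44 were higher. Lysosome and autophagy genes were higher in 36 of 50 cases (median 0.08). Their median was 0.14 without heterozygous array 1 and 0.05 without heterozygous array 4. Both heterozygous arrays were above every wild-type array for 2 of the 50 (4.0%, against 3.14% of all probe sets). Among these 2 was ctsd, a lysosomal protease, which read 10.61 and 10.75 against 10.05 to 10.55.

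Matrix, stellate and endothelial genes were higher in 28 of 39 cases (median 0.12, and 0.05 without heterozygous array 4), with the collagen gene col6a3 at 6.13 and 6.53 against 5.6 to 6.0 and the endothelial receptor gene tek lower, at 4.97 and 5.46 against 5.54 to 5.70. In bulk liver RNA, more cells of a type and more RNA per cell cannot be told apart. Proteasome genes were lower in 31 of 44 cases (median -0.05), a direction that disappeared after quantile normalization, when 22 were higher and 22 lower; without heterozygous array 4 the median was -0.09. Heat shock and cochaperone genes were lower in 37 of 53 cases (median -0.07), but without heterozygous array 1 the median was 0.06 and 22 were lower. In the hypoxia list both heterozygous arrays were below wild type for 3 of 33 genes (9.09%, against 3.48% of all probe sets), including the erythropoietin gene epoa at 5.90 and 6.45 against 6.52 to 7.29. The fasting-induced growth factor binding protein gene igfbp1b read 8.14 and 8.25 against 9.27, 7.89, 9.94, 9.67 and 9.88, with wild-type array 3 below both heterozygotes (-1.13 ± 0.49, SE).

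**Figure D4:**
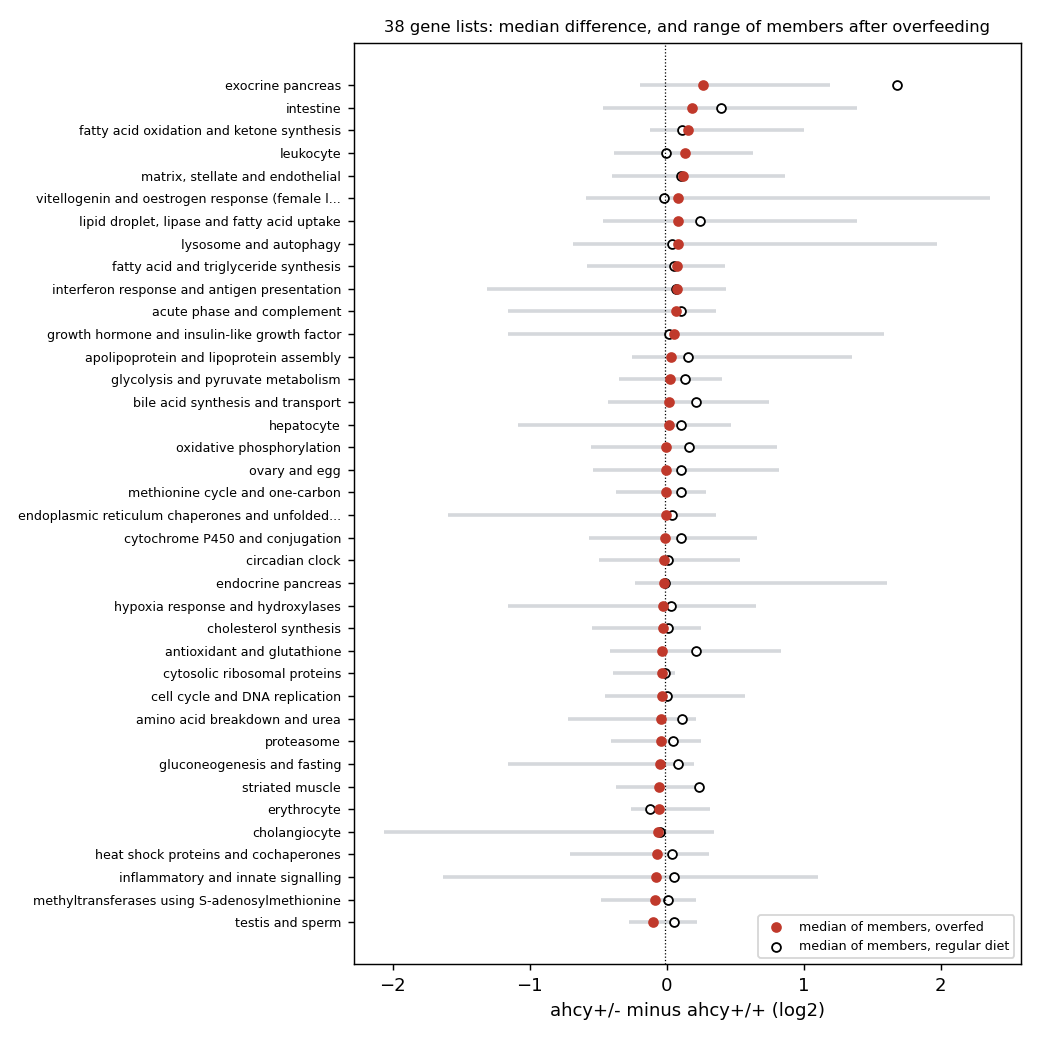
Median ahcy+/- minus ahcy+/+ difference (log2, horizontal axis) of the members of 38 gene lists after overfeeding (filled) and on the regular diet (open), with grey lines from the lowest to the highest member after overfeeding; the dotted line is the median over all genes. Apart from exocrine pancreas and intestine, overfed medians lie between -0.10 and 0.16.

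The 2 heterozygous arrays differed from each other in markers of neighbouring organs by more than the genotypes did. Exocrine pancreas genes averaged 11.79 on array 1 and 7.22 on array 4, on either side of the wild-type range of 8.52 to 10.23. For 18 of 21 such genes (85.7%, against 3.81% of all probe sets) array 1 lay above and array 4 below every wild-type array; the exceptions were pdia2, amy2al1 and ptf1a. On array 4 no exocrine pancreas marker was lower than 5.0, the level of the carboxypeptidase gene cpa1, which read 10.6 on array 1. On the regular diet the list averaged 8.66 to 12.49. The phospholipase gene pla2g1b read 10.88 and 6.05, and the zymogen granule gene sycn.2 read 11.58 and 6.61. Endocrine pancreas genes averaged 6.38 and 5.23 against 5.26 to 5.62, and the somatostatin gene sst2 read 9.33 and 4.74. Intestine genes averaged 6.87 and 6.18 against 6.08 to 6.36, with the intestinal fatty acid binding protein gene fabp2 at 9.10 and 5.24. With the mean levels of the exocrine pancreas and intestine lists as covariates, a fit chosen after seeing the data, 0 probe sets passed in limma for genotype after overfeeding; their part in single differences was not tested.

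Vitellogenin genes, which oestrogen induces in the liver of egg-laying females, separated the same arrays. The gene vtg2 read 13.46 on array 1, 7.30 on array 4 and 10.64, 8.06, 7.04, 6.71 and 7.64 on the wild-type arrays. Array 1 was thus the highest of the 7 and wild-type array 2 came next. The genes vtg3 (11.06 and 5.42) and vtg4 (12.69 and 6.97) followed the same order, and the mean differences of 2.07 to 2.36 for the 3 genes had standard errors of 1.79 to 2.25.

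A set of inducible stress genes was low on heterozygous array 1 and within the wild-type range on array 4. The mTOR inhibitor gene ddit4 read 7.91 and 9.91 against 9.09 to 11.38, and ppp1r15a, which directs a phosphatase to a translation factor, read 7.80 and 10.03 against 9.51 to 11.70. The transcription factor gene junbb read 10.18 and 12.17 against 11.57 to 12.70. The growth arrest gene gadd45ga (6.98 and 10.11 against 8.46 to 11.34) and the cytokine inhibitor gene socs3a (5.35 and 7.0 against 6.34 to 8.34) had the same arrangement. These 5 genes, each eligible by its list, were grouped after their values were seen. Their mean differences, from -1.64 to -0.95, therefore rest on array 1, since array 4 lay inside the wild-type range for all 5. The list of endoplasmic reticulum chaperones and unfolded protein response, which holds ddit4 and ppp1r15a, was not low on array 1 as a whole. Of its 39 genes, 19 were higher and 20 lower (median -0.01). Its mean level was 9.65 on array 1, 9.43 on array 4 and 9.06 to 10.15 in wild type. The median was 0.15 without array 4 and -0.19 without array 1.

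Array 4 had a smaller set of its own. The collagenase gene mmp13a read 7.71 on array 4, 5.89 on array 1 and 5.41 to 6.13 in wild type, and the forkhead gene foxd5 read 7.21, 5.12 and 5.03 to 5.23. Leukocyte genes averaged 7.11 on array 4 and 6.70 on array 1, against 6.70 to 6.91 in wild type. Without array 1, which leaves a lone heterozygous array assumed to vary like the other groups, 4 probe sets passed in limma, all higher on array 4: igl1c1, foxd5 and 2 without a gene name, with a smallest adjusted p of 0.00282. The gene foxd5 was named after its values were seen. The 2 heterozygous arrays correlated with r = 0.959 across all probe sets, against 0.958 to 0.980 among the 10 pairs of wild-type arrays. Between the 2 heterozygous arrays 529 probe sets differed at least 2-fold, against 249 to 858 in the wild-type pairs. Only the pair of wild-type arrays 3 and 7 was less alike, with r = 0.958 and 858 such probe sets. The other wild-type pairs had r of 0.968 to 0.980 and 249 to 515 such probe sets.

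**Figure D5:**
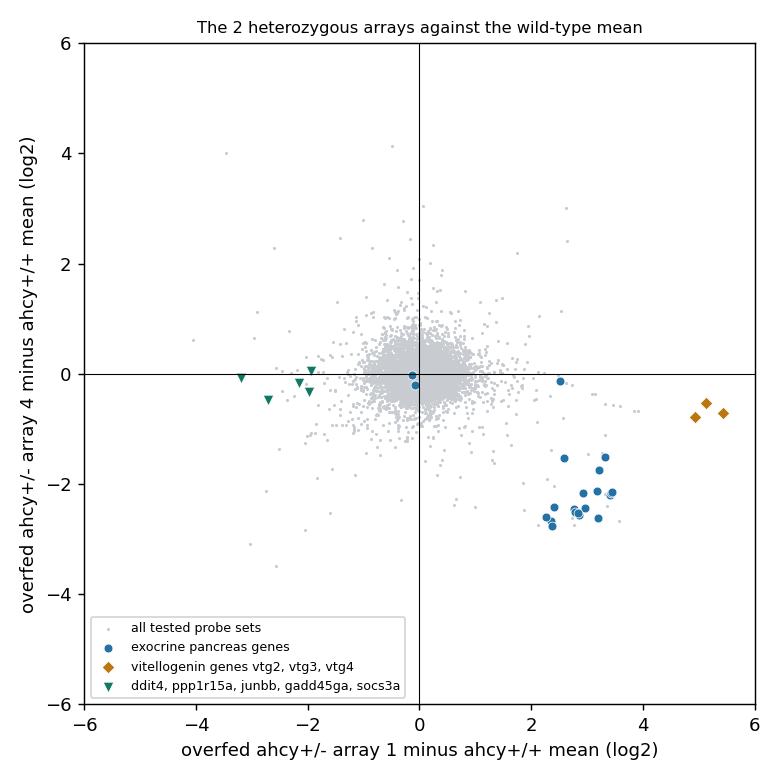
Each point is a probe set, placed by its level on heterozygous array 1 (horizontal) and array 4 (vertical) minus the mean of the 5 overfed ahcy+/+ arrays (log2). Exocrine pancreas genes lie at high array 1 and low array 4, vitellogenins at high array 1, and 5 stress genes at low array 1 with array 4 near 0.

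The genotype difference on the regular diet was set beside the overfed one to see whether diet altered it. In limma 0 of 15134 probe sets (0.0%) passed for genotype on the regular diet and 459 (3.03%) had an unadjusted p under 0.05. For the interaction, the test of whether the genotype difference itself differed between diets, 0 (0.0%) passed, the smallest adjusted p was 1.0, and 289 (1.91%) had an unadjusted p under 0.05. The 2 genotype differences share no arrays. Across probe sets, which are not independent replicates, they correlated with Pearson r = 0.042 and Spearman rho = 0.112. For 1001 probe sets both overfed heterozygous arrays lay on the same side of all overfed wild-type arrays. Of these, 55.2% had the same sign of difference on the regular diet, against 53.0% of all probe sets.

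All 4 named genes with the smallest interaction p had genotype differences of opposite sign on the 2 diets. A small interaction p favours such genes, so that the opposite signs describe the selection. The interferon-induced gene ifi44a6 read 4.19 and 5.67 in overfed ahcy+/- livers and 3.75, 3.6, 3.54, 4.66 and 3.40 in overfed ahcy+/+ livers, a difference of 1.14 ± 0.41 (SE), against -1.31 on the regular diet. Array 1 lay within the overfed wild-type range and array 4 above it. Most of the overfed ahcy+/+ values of ifi44a6, and its regular-diet ahcy+/- mean of 3.375, were below the floor of 4 used as a filter. The phosphatidylcholine gene pemt differed by -0.31 after overfeeding and by 0.74 on the regular diet, where it averaged 7.02 in ahcy+/- and 6.28 in ahcy+/+ livers. The Wnt signalling gene dact2 differed by -0.13 and 0.51, with every overfed array below the floor of 4. The transcription factor subunit gene gtf3c2 differed by -0.35 and 0.28. None of the 4 passed (limma, adjusted p = 1.0). In limma, 260 of 15134 probe sets (1.72%) had an unadjusted p under 0.05 after overfeeding and 459 (3.03%) on the regular diet. Whether their overlap is larger than for unrelated differences was not tested. It held 13 probe sets, 9 of them with the same direction on both diets. Of the 24 genes above only tmx2b (-0.57 and -0.40) was among the 13. Its overfed heterozygous levels were below the floor, and its other probe sets did not share the overfed difference.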

How the data were processed

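Total RNA of 14 adult zebrafish livers was measured on an Affymetrix array. The authors deposited 1 table of probe set values, read here as log2 from their range of 0.464 to 14.74; GCRMA and Partek are named, without version or role, per the submitters' processing notes. The labels' protocols name Cy3, and the label field biotin. The 115 control probe sets were left out, and 368 below the floor (log2 values had to exceed 4 on at least 2 arrays) were removed, leaving 15134. Arrays are numbered by title; the description of overfed ahcy+/+ array 4 carries another number. Symbols came from the platform annotation (10795 probe sets with 1 gene, 135 with several, 4572 with none).

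A limma model (version 3.58.1, R 4.3.3) estimated the 4 group means from all 14 arrays, with 10 residual and 3.06 prior degrees of freedom. Benjamini-Hochberg adjustment ran over all tested probe sets at a threshold of 0.05, and intervals are 95%. In 10 simulated sets the overfed comparison found 65.7% of the probe sets given a log2 change of 1 and 92.5% of those given 2. Each set held 200 changed probe sets and normal noise that was independent between probe sets. With fewer real changes the adjusted threshold is stricter, so these shares need not hold for the deposited values. Precision is limited by the number of arrays.

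The comparison, the 38 gene lists and the rule for named genes were chosen with earlier results of these data known. Named genes were the 12 of each direction with the smallest unadjusted p, 4 for the interaction, all methionine list members and up to 4 per other list, from probe sets of 1 gene. Cell type markers and list exceptions are named in addition. Lists use the probe set with the highest mean per gene and carry no test. Alternatives were other filters, normalizations, variance settings and covariates, and leaving out each array. Figures were drawn with matplotlib 3.10.9.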

Additional observations from a re-analysis of the deposited data

Results flagged for a closer look

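In 4 of 152 gene groups examined, 1 overfed wild-type array stood apart from the other 4 by more than 0.71 of the group's range; chance does so in about 1 in 20 groups. For ppargc1b, wild-type array 4 read 5.98 while the others read 5.0 to 5.27 (gap of 0.727 of the range). For ifi44a6, array 6 read 4.66 against 3.40 to 3.75 (0.722). For adka, array 7 read 10.73 against 11.17 to 11.26 (0.819). For vtg4, array 2 read 9.52 against 6.99 to 7.48 (0.806). The 2 heterozygous arrays are too few for this comparison.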

How the results depend on the processing

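The count of probe sets that passed for genotype after overfeeding was 0 in limma under every alternative tried except 2. Leaving out single arrays gave 0 to 4 for this comparison and 0 to 4 for the interaction, the 4 arising without heterozygous array 1. Leaving out the 2 arrays highest in vitellogenin, heterozygous array 1 and regular-diet ahcy+/+ array 9, chosen after seeing the data, also leaves a lone heterozygous array: the same 4 passed for genotype, and 3 of them for the interaction. With no low-value filter 1 passed for the interaction, ccnb3 (adjusted p = 0.0238), named after its values were seen. Genotype on the regular diet gave 0 throughout. No gene was called, and of 192 genes eligible to be named, 38 had a difference of the opposite sign under at least 1 alternative, among them junbb (-1.95 to 0.05), fabp2 (-0.54 to 3.32), vtg2 (-0.72 to 5.44), mat2aa (-0.71 to 0.94), gatm (-0.56 to 0.35) and cth (-0.70 to 0.23). Of 950 list medians recomputed under the alternatives, 40 moved by more than the spread between replicates. No paired analysis was possible because the overfed ahcy+/- and ahcy+/+ groups share only 1 replicate number. Resting on 2 heterozygous arrays, the differences cannot show changes smaller than their intervals, and genes known to 1 probe set have no second measurement.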

Other observations

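Of the probe sets that differed in the same direction on both diets at an unadjusted p under 0.05, the guanine deaminase gene gda was lower in ahcy+/- livers by 0.53 after overfeeding and by 0.54 on the regular diet. The chemokine gene cxcl14 was higher by 0.43 and 0.47, and ndrg4 by 0.47 and 0.49. None passed in limma on either diet, and these genes were named after their values were seen. In the glycolysis list, 6 of 35 genes (17.1%, against 1.88% of all probe sets) lay above every overfed wild-type array on heterozygous array 4 and below every one on array 1.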
